A study of Danio rerio with 6 samples.

Results

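The 150 genes described here were the abundant genes of PV follicles with the largest rise over PG follicles. They were chosen by their own measured values: the mean normalized count (the raw count divided by a size factor of its library) was taken over the 3 PV and the 3 PG libraries, genes with a mean PV level of at least 1000 were kept, and the 150 with the highest log2 ratio of PV to PG means, after 1 was added to each mean, were taken. Of the 31540 genes in the count table, 5100 reached that PV level. The rule leaves out acvr1l and amotl2a. The difference between the stages is therefore what selected these genes, and for the genes themselves it is given as a description without a test.

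Primary growth (PG) is the first growth stage of the zebrafish follicle, before vesicles of the cortex appear in the oocyte. Those vesicles, the cortical alveoli, mark the previtellogenic (PV) stage, which precedes the uptake of yolk. The passage between these stages is called follicle activation or recruitment. The PV group and the PG group each held 3 libraries of whole follicles from wild-type females of the AB strain with no treatment named, sorted with sieves of different pore size. The fish formed 3 groups of 3, and the follicles of both stages were taken from each group, so that every PV library shares its fish with a PG library. Which libraries share a group is not stated, and the fit treats them as independent. The age of the fish is not given in the sources used here. A follicle contains the oocyte and its surrounding somatic cells, and in such bulk samples fewer cells of a type and less RNA per cell cannot be told apart.

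The libraries held between 14492086 and 36603108 counts. The 150 members took between 2.15% and 2.74% of the counts of each PV library, against 0.319% to 0.371% of each PG library. Markers of several somatic cell types were higher in PV. The 12 granulosa cell markers summed to between 1807 and 2127 normalized counts in PV follicles and between 99.3 and 165 in PG follicles, where FOXL3 was at 0, and 9 of the 10 that could be tested were higher in PV. The 12 stromal markers summed to between 1855 and 1982 in PV follicles and between 480.1 and 805 in PG follicles, where LUM was at 0, and 9 of 11 were higher. The 11 vessel markers summed to between 642 and 730 in PV and between 251 and 393 in PG follicles, and 6 of 9 were higher. The sums of theca and blood markers did not share this. The 8 theca markers summed to between 8918 and 9441 in PV and between 14530 and 16079 in PG follicles. Of the 5 that could be tested, however, 2 were called higher and 0 lower, while 3 had a log2 fold change below 0. A sum is carried by the markers with the most counts, so it does not stand for each of them. The 9 red blood cell markers summed to between 224 and 474 in PV and between 722 and 915 in PG follicles, with 1 of 7 higher and 3 lower. The sums of the 11 white blood cell markers overlapped, with 488 to 547 in PV and 439 to 555 in PG follicles. The 12 oocyte markers were also lower in sum, with 110414 to 117309 in PV and 268622 to 280365 in PG follicles, and 5 of 12 were lower. The part of these differences in the results given here was not tested.

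The members' ratios ran between 2.102-fold and 43.3-fold higher in PV, with a median of 2.60-fold. A ratio above 8-fold was found in 26 members, and 12 of these were protein genes of the mitochondrial genome. Another 115 members were between 2-fold and 4-fold higher. For 149 of the 150 members every PV value lay above every PG value, while 36.5% of the 15899 tested genes showed that separation. In the edgeR fit over all genes, 149 members were called higher, which asks for a log2 fold change of 1 or more with an adjusted p no greater than 0.05. Among all tested genes 13.2% were called higher and 5.97% lower. Since the rule used this contrast, nothing is read from the members' counts. Among the 5100 genes with a PV level of at least 1000, 178 were called higher, which is 3.49%. The shares over all tested genes that stand beside the lists were not matched for level.

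The rank limit fell where the values were close together. The last members inside it were rictorb, anxa5b and acbd5a, all with a log2 ratio of 1.07. The genes next in order outside it were PTDSS2 with 1.07, nek7 with 1.06 and synj1 with 1.06. Just above the PV level of 1000 lay tcf3b, pde4ba and fam208b, with mean PV levels of 1006, 1007 and 1014. Just below it, with ratios that would have qualified, lay ttc39c, larp4aa and mt-atp6, with mean PV levels of 995, 989 and 987. A further limit follows from the rule: a gene with a PG mean under 250 can enter only if its ratio is close to 4-fold or more.

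**Figure D1:**
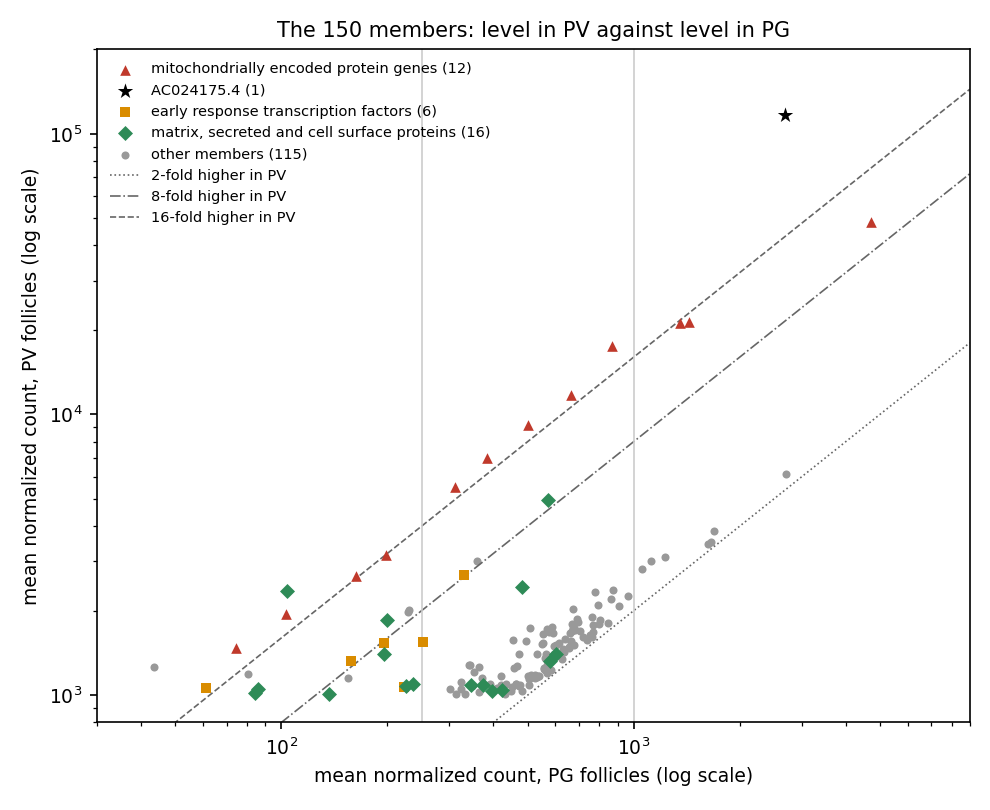
Mean normalized count of each member in PV follicles (vertical axis) against PG follicles (horizontal axis), both on log scales, with 1 point per gene and the mean of 3 libraries per stage. The grey vertical lines mark PG means of 250 and 1000, and the sloping lines mark 2, 8 and 16-fold higher levels in PV. The 12 mitochondrial genes lie near the 16-fold line, except mt-co1, which has the highest PG level of them and lies lower, at 10.3-fold. Most of the 115 members drawn as grey circles lie just above the 2-fold line.

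Genes of the mitochondrial genome formed the largest group with a high ratio. Mitochondria keep a small circular genome that encodes a few subunits of the respiratory chain and of ATP synthase, while the nucleus encodes the remaining subunits and all factors that copy and transcribe mitochondrial DNA. Oocytes of vertebrates accumulate mitochondria as they grow. Of the 13 protein genes of this genome 12 were members, between 10.3-fold and 20.3-fold higher in PV. The remaining gene, mt-atp6, missed the PV level with a mean of 987 in PV and 76.3 in PG, a ratio of 12.8-fold.

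Cytochrome b (mt-cyb, ENSDARG00000063924), the mitochondrially encoded subunit of complex III, had the highest ratio of the group. It had 18756, 17320 and 16633 normalized counts in PV follicles, against 912, 845 and 841 in PG follicles, a ratio of 20.3-fold. The values of each stage lay close together and the groups were far apart.

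The 7 subunits of complex I (NADH dehydrogenase) were between 15.8-fold and 19.6-fold higher in PV. Among them mt-nd3 (ENSDARG00000063914) had 1544, 1397 and 1477 in PV and 64.1, 86.2 and 72.2 in PG follicles. The gene with the most counts among the 7, mt-nd4 (ENSDARG00000063917), had 12329, 11311 and 11487 in PV and 683, 721 and 587 in PG follicles. The lowest ratio of these subunits, 15.8-fold, belonged to mt-nd6 (ENSDARG00000063922), the gene that lies on the other strand of the mitochondrial genome, with 3175, 2873 and 3391 in PV and 247, 194 and 153 in PG follicles. Whether the counting used strand is not stated, so reads of mt-nd6 cannot be told apart from reads of the opposite strand there.

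The 3 subunits of complex IV (cytochrome c oxidase) had lower ratios, between 10.3-fold and 15.7-fold. Cytochrome c oxidase subunit I (mt-co1, ENSDARG00000063905) had 50908, 48351 and 45916 in PV follicles, against 5100.2, 4846 and 4211 in PG follicles, a ratio of 10.3-fold and the lowest of the 13 genes. For mt-co2 (ENSDARG00000063908) the values were 21801, 20710 and 21136 in PV and 1383, 1407 and 1272 in PG follicles. For mt-co3 (ENSDARG00000063912) they were 22952, 20667 and 20325 in PV and 1549, 1517 and 1229 in PG follicles. These 3 were the mitochondrial protein genes that already exceeded 1000 in PG follicles. The ATP synthase subunit gene mt-atp8 (ENSDARG00000063910), which overlaps mt-atp6, had 2611, 2691 and 2677 in PV and 168, 179 and 141 in PG follicles, 16.2-fold higher.

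Because mt-co1 had the smallest ratio, its share among the 13 genes was smaller in PV follicles. It took 31.8% ± 0.571 of their summed normalized counts in PV and 43.5% ± 0.698 in PG follicles (SD, n = 3 each). The share of mt-cyb was 11.5% ± 0.255 in PV and 8.01% ± 0.581 in PG follicles. The share of mt-co2 was 13.96% ± 0.340 in PV and 12.5% ± 0.531 in PG follicles. The remaining composition was similar in order, with mt-atp6 and mt-nd3 as the genes with the fewest counts in each stage. Summed without mt-co1, the other 12 genes were 16.9-fold higher in PV, while all 13 together were 14.03-fold higher.

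**Figure D2:**
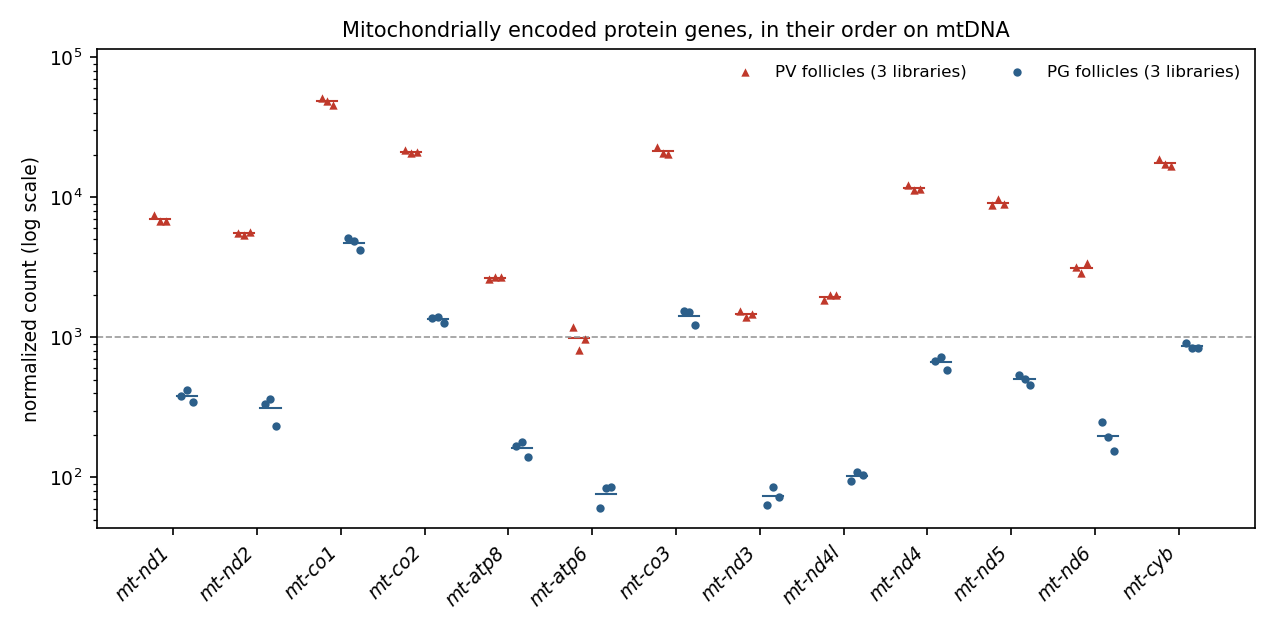
Normalized counts of the 13 mitochondrially encoded protein genes on a log axis, in their order along the mitochondrial genome. Triangles are the 3 PV libraries, circles the 3 PG libraries, short bars the means, and the dashed line marks 1000. Each PV group lies apart from its PG group, with the smallest gap at mt-co1, and the PV mean of mt-atp6 lies just under the line.

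As a share of all raw counts, the 13 genes took 0.823%, 0.772% and 0.752% of the PV libraries, against 0.0447%, 0.0437% and 0.0372% of the PG libraries. The ratio of the mean shares was 18.7, above the 14.03-fold of the normalized counts because the library totals and the size factors differ between the stages. The shares of the 3 PV libraries lay close together, and so did those of the 3 PG libraries. Copies of mitochondrial sequence in the nuclear genome could take reads of these genes, and this was not tested.

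The genes in the nucleus that encode the other subunits of the same complexes were not members, so the fit over all genes tests them. Of 87 tested subunits of the respiratory chain and ATP synthase 2 were called higher and 1 was called lower in PV, beside 13.2% and 5.97% of all tested genes. Call shares differed with level: of the 5100 genes with a PV level of at least 1000, 178 (3.49%) were called higher and 197 lower. The 87 were not compared with genes of like level. The median log2 fold change of the 87 was -0.31, beside 0.03 for all tested genes. In all, 74 of the 87 lay below 0, and 54 of these had an adjusted p no greater than 0.05, whereas 3 of those above 0 did. The median turned to 0.11 when libraries were scaled by their totals, a scaling that moved the median of all genes by 0.42. Relative to the median of all genes it was -0.34 in the TMM scaling as in the scaling by totals. A change of scaling moves all genes by nearly the same amount, so it could hardly change this distance.

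The 2 nuclear subunits called higher were low in counts. One of them, cox4i2, an isoform of complex IV subunit 4, had 55.7, 55.4 and 48.7 in PV follicles and 6.33, 12.4 and 16.2 in PG follicles (log2 fold change 2.28, standard error 0.38, adjusted p = 0.00047). The other was cox6b1, with 27.5, 12.6 and 28.7 in PV and 8.45, 11.5 and 5.41 in PG follicles (log2 fold change 1.39, adjusted p = 0.033). Its call was lost with DESeq2, without the filter on low counts, and when any library other than PV replicate 2 was left out. The subunit called lower was ndufs8b of complex I, with means of 189 in PV and 503 in PG follicles (log2 fold change -1.39, standard error 0.13, adjusted p = 6.1e-06).

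Among 32 tested genes for copying and expressing mitochondrial DNA, 2 were higher and 2 were lower in PV, beside 13.2% and 5.97% of all tested genes. The median log2 fold change of the 32 was -0.14. Those higher were tfb2m, a factor that starts mitochondrial transcription, with means of 579 in PV and 253 in PG follicles (log2 fold change 1.20, adjusted p = 6.1e-07), and the nuclear receptor gene esrra (log2 fold change 1.03, adjusted p = 2.4e-05), which was not called without PV replicate 2 or without PG replicate 2. The lower genes were ppargc1b, a coactivator known in mammals for mitochondrial biogenesis, with means of 612 in PV and 1751 in PG follicles (log2 fold change -1.52, adjusted p = 1.8e-08), and si:dkeyp-94h10.5 (log2 fold change -1.31). The packaging factor TFAM had means of 568 in PV and 536 in PG follicles (log2 fold change 0.09, standard error 0.09). The mitochondrial RNA polymerase POLRMT had 1592 in PV and 1575 in PG follicles (log2 fold change 0.01, standard error 0.06). Neither passed the test. A member with a role in mitochondria, although encoded in the nucleus, was MTIF2, which starts mitochondrial translation, with 1075, 1060 and 1133 in PV and 466, 484 and 478 in PG follicles.

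The member with the highest ratio was AC024175.4 (ENSDARG00000080337), an entry for which the tables used here give no gene product. In an alternative fit the entries of this name stem were grouped with the mitochondrial genes, and both were left out. With these entries added, the ratio of mitochondrial shares was 26.3, against 18.7 for the 13 protein genes. AC024175.4 had 42513, 127439 and 180466 normalized counts in PV follicles, against 3971, 2623 and 1496 in PG follicles, a ratio of 43.3-fold. The groups did not overlap, but the values within them were wide apart. The highest PV value was 4.24 times the lowest, while for the 13 mitochondrial genes summed that factor was 1.08. Without PV replicate 3 its ratio was 31.5-fold, and without PV replicate 1 it was 57.1-fold. The 17 other entries with the same name stem had at most 814 normalized counts on average in PV, with ratios between 6.75 and 29.98. All 17 had every PV value above every PG value, as did 36.5% of all tested genes.

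Setting these 13 members apart, 137 remained. Of these, 17 had a PG mean under 250 and are called near the floor here, 113 had a PG mean between 250 and 1000, and 7 already exceeded 1000 in PG follicles. The genes near the floor were between 4.64-fold and 28.4-fold higher in PV, with a median of 8.60-fold. The middle group had a median of 2.49-fold, and the 7 abundant genes ranged between 2.11-fold and 2.67-fold. Counted as a difference and not as a ratio, the order was another one. The 7 abundant genes gained between 1754 and 3438 normalized counts with a median of 1877, the genes near the floor gained between 849 and 2244 with a median of 1112, and the middle group gained a median of 827. Both orders follow in part from the rule, which sets a lower limit on PV and on the ratio.

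The groups are described here by what their genes encode. Of all 21 members near the floor, the mitochondrial genes included, 8 encode matrix, secreted or cell surface proteins, 4 are early response transcription factors and 4 are mitochondrial. Of the 11 members that exceeded 1000 in PG follicles, none belonged to the first 2 of these classes, and 3 act in RNA metabolism. Those 2 classes held 16 and 6 of the 150 members. Every one of the 15 members in the class of kinases, phosphatases and lipid signalling, of the 12 in vesicle traffic, of the 11 in chromatin and of the 8 in the ubiquitin system had a PG mean of at least 250. So had most of the 150 members, with 118 between 250 and 1000 and 11 above 1000, and nothing is read from these class counts. The classes were assigned by hand from the gene names, with 16 members left without a class, and no test was made of them.

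Spread also differed. The median coefficient of variation between replicates was 7.89% in PV and 23.7% in PG follicles for all 21 members near the floor, and 6.01% in PV and 6.54% in PG follicles for the 118 members between 250 and 1000. In PG replicate 3, the library with the fewest counts, 18 of the 21 members near the floor had their lowest PG value, as did 74 of the 118 in the middle and 9 of the 11 above 1000. The summed granulosa, stromal and vessel markers were also lowest in that library among the PG libraries, at 99.3, 480.1 and 251, and the part of this in the members' values was not tested. Among the PV libraries, replicate 3 held the lowest value for 15 of the 21 members near the floor, 50 of the 118 and 4 of the 11. It was not the PV library with the fewest counts, and it also had the lowest of these marker sums in PV, 1807, 1855 and 642. The share over all genes is not given here. Without PG replicate 3 the median ratio of the members near the floor was 7.78-fold and the lowest was 4.16-fold.

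**Figure D3:**
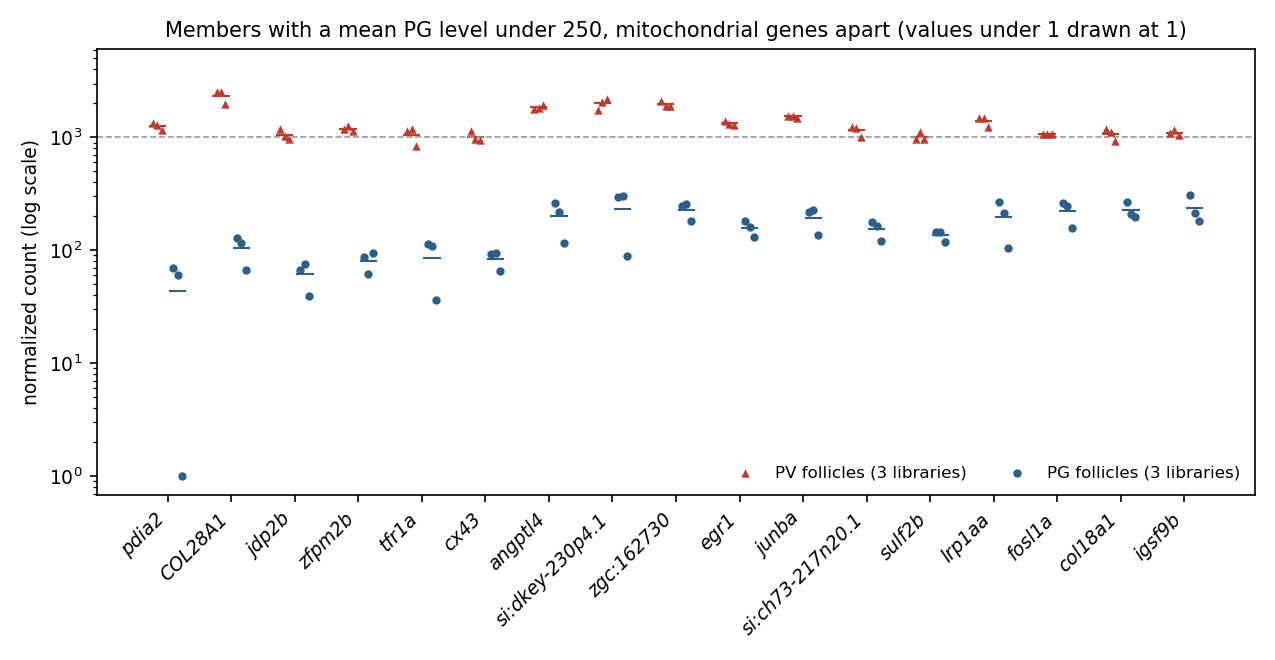
Normalized counts on a log axis of the 17 members with a PG mean under 250, mitochondrial genes apart, in order of their ratio. Triangles are the 3 PV libraries, circles the 3 PG libraries in the order of their replicate numbers, short bars the means, and the dashed line marks 1000. The PV values lie near or above 1000, and in most genes the circle on the right, PG replicate 3, is the lowest; for pdia2 that library had 0 counts and is drawn at 1.

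Genes for matrix, secreted and cell surface proteins were the largest class near the floor. The growing follicle is wrapped in follicle cells that rest on a basement membrane, and the oocyte and its follicle cells are coupled by gap junctions. The class held 16 members, with a median ratio of 4.90-fold and a range between 2.29-fold and 22.4-fold. A collagen gene, COL28A1 (ENSDARG00000100781), had 2537, 2548 and 1958 in PV follicles and 129, 116 and 66.8 in PG follicles, a ratio of 22.4-fold. Its lowest PV value was 15.2 times its highest PG value.

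The gap junction gene cx43 (ENSDARG00000041799) had 1133, 970 and 949 in PV follicles, against 93.6, 94.2 and 65.0 in PG follicles, 11.9-fold higher. The transferrin receptor gene tfr1a (ENSDARG00000101322), which serves iron uptake, had 1128, 1191 and 842 in PV and 113, 109 and 36.1 in PG follicles, 12.1-fold higher, with a wide spread in PG. The secreted lipoprotein lipase inhibitor gene angptl4 (ENSDARG00000035859) had 1802, 1803 and 1933 in PV and 265, 219 and 116 in PG follicles, 9.21-fold higher. Heparan sulfate was represented by sulf2b, an endosulfatase that trims it, which was 7.40-fold higher, and by ext2, an enzyme that builds it, which was 2.47-fold higher. A lipoprotein receptor gene, lrp1aa, was 7.13-fold higher, and the matrix genes ecm1b and col18a1 were 5.03-fold and 4.77-fold higher.

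A list of matrix and secreted genes built around these members had 23 other genes that could be tested, with a median log2 fold change of 0.29. Of the 23, 7 were higher and 3 lower in PV, beside 13.2% and 5.97% of all tested genes. Laminin and nidogen genes of the basement membrane had the largest changes among those with a mean of at least 50. The gene lamb1a had means of 824 in PV and 85.5 in PG follicles (log2 fold change 3.15, standard error 0.24, adjusted p = 2.1e-06), nid1b a log2 fold change of 2.65 and lama1 one of 2.64. The paralog of the member ecm1b, ecm1a, was lower (log2 fold change -2.22), as were timp2b (-2.41) and fn1a (-1.28). The list was drawn up with the members in view, so its direction is not independent of them.

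Early response transcription factors were the next class. The AP-1 factors are dimers of Fos and Jun proteins and their relatives, and egr1 is a zinc finger factor. Many such genes are known for fast and short-lived induction by growth factors, hormones and stress. The follicles were pipetted apart, sieved, centrifuged and washed before RNA was extracted, within a time limited to keep changes in vitro small. The part of this handling in the levels of these genes was not tested. Members of this class were jdp2b, egr1, fosab, junba, junbb and fosl1a. The gene jdp2b was placed here as a relative of the AP-1 factors, and whether it is induced in that way was not examined. All 6 were between 4.79-fold and 17.0-fold higher in PV, and 4 of them were near the floor in PG.

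The Jun dimerization partner gene jdp2b (ENSDARG00000020133) had 1176, 1023 and 976 in PV follicles, against 67.6, 76.4 and 39.7 in PG follicles, 17.0-fold higher. For egr1 (ENSDARG00000037421) the values were 1386, 1314 and 1286 in PV and 182, 162 and 130.0 in PG follicles, 8.37-fold higher. The gene with the most PV counts of the 6, fosab (ENSDARG00000031683), had 3014, 2504 and 2528 in PV and 338, 372 and 278 in PG follicles, 8.12-fold higher. In each of these genes the PG values were all well under the PV values, the contrast by which the rule chose them.

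The paralogs junba and junbb were both several-fold higher. In PV follicles junba (ENSDARG00000074378) had 1537, 1561 and 1497, against 219.6, 228 and 137 in PG follicles. For junbb (ENSDARG00000104773) the values were 1747, 1462 and 1443 in PV and 294, 243 and 220.2 in PG follicles. Reads shared by such paralogs could have been split between them. The Fos-related gene fosl1a (ENSDARG00000015355) varied least between PV libraries, with 1082, 1071 and 1063, against 262, 249 and 159 in PG follicles. Summed over the 6 genes, the level was 9942, 8935 and 8794 in PV and 1363, 1330 and 964 in PG follicles.

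The other early response genes were not chosen by the rule, and the fit over all genes tests them. The list itself was drawn up with earlier results of these data known, so its direction is not independent of them. Of 51 tested genes of the list that were not members, 28 were called higher and 1 lower in PV, beside 13.2% and 5.97% of all tested genes. The median log2 fold change of the 51 was 1.07, beside 0.03 for all tested genes. The AP-1 gene jun itself had means of 751 in PV and 82.0 in PG follicles (log2 fold change 3.15, standard error 0.12, adjusted p = 2.3e-08). A related factor, atf3, had 849, 940 and 956 in PV and 230, 195 and 209 in PG follicles (log2 fold change 2.102), and fosb and jund had log2 fold changes of 2.67 and 2.41. The cytokine signalling inhibitor socs3a had a log2 fold change of 3.74. It stands in the table as a pair of entries with nearly identical counts, so it counts as a pair among the 28, as does egr2a, whose entries have the same PG counts. Its paralog socs3b was the gene called lower, with means of 626 in PV and 1274 in PG follicles (log2 fold change -1.02, adjusted p = 1.7e-06), and it was not called with libraries scaled by totals, with at least 10 counts required in every library, without PV replicate 2 or without PG replicate 2. The growth factor feedback phosphatase gene dusp6 was higher, with means of 828 in PV and 99.9 in PG follicles.

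**Figure D4:**
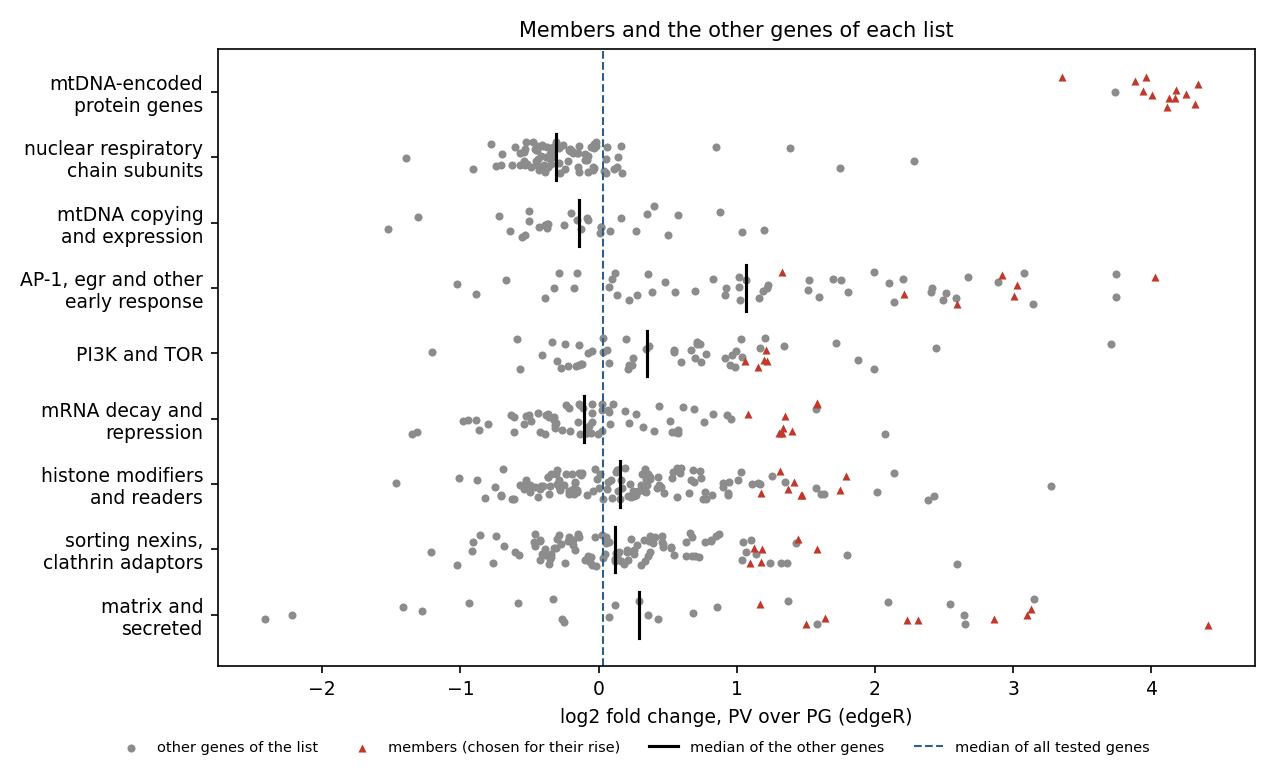
Log2 fold change (PV over PG, edgeR) of the tested genes of 9 lists, with 1 point per gene. Red triangles are members, which were chosen for their rise, grey circles the other genes of each list, black bars the medians of the other genes, and the dashed line the median of all tested genes, 0.03. The other early response genes have a median of 1.07, while the nuclear respiratory chain subunits have a median of -0.31.

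Some members with a high ratio had other roles. The protein disulfide isomerase gene pdia2 (ENSDARG00000018263), of a family that forms disulfide bonds in the endoplasmic reticulum, had 1348, 1280.2 and 1152 in PV follicles, against 69.7, 60.4 and 0 in PG follicles, 28.4-fold higher. The count of 0 in PG replicate 3 allows a share of up to 2.07e-05% of that library (3 counts). Without that library the ratio was 19.1-fold. The cofactor gene zfpm2b (ENSDARG00000100560), related to the GATA cofactor FOG2 of mammals, had 1185, 1257 and 1136 in PV and 86.6, 61.3 and 93.9 in PG follicles, 14.6-fold higher. The thioredoxin interacting protein gene txnipa, known in mammals for control of glucose uptake, had 3292, 2956 and 2784 in PV and 429, 418 and 233 in PG follicles, 8.34-fold higher with a PG mean of 360. The entries si:dkey-230p4.1 and zgc:162730 were 8.67-fold and 8.60-fold higher, and no role is known for them from the tables used here.

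The 7 abundant members apart from the mitochondrial genes and AC024175.4 were ankrd11, usp36, wee1, dicer1, trim71, helz and rasgef1ba. The chromatin cofactor gene ankrd11 (ENSDARG00000051886) had the most counts of the 7, with 5353, 6978 and 6088 in PV follicles, against 3076, 2628 and 2402 in PG follicles, 2.27-fold higher. The deubiquitinase gene usp36 (ENSDARG00000032327), whose product acts in the nucleolus, had 3802, 3741 and 3986 in PV and 1699, 1721 and 1659 in PG follicles. The kinase gene wee1 (ENSDARG00000093864), which holds back entry into M phase by phosphorylating Cdk1, had 3347, 3723 and 3450.1 in PV and 1641, 1675 and 1668 in PG follicles. In all of these genes every PV value lay above every PG value, as in 149 of the 150 members and 36.5% of all tested genes. The rule chose them by this contrast.

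Small RNA and mRNA regulators were found among the abundant members. The microRNA processing enzyme gene dicer1 (ENSDARG00000001129) had 3253, 3926 and 3215 in PV follicles and 1638, 1631 and 1619 in PG follicles, 2.13-fold higher. Without PV replicate 2 its log2 fold change was 0.99, under the threshold of 1. The RNA-binding ubiquitin ligase gene trim71 had 2969, 3243 and 3141 in PV and 1354, 1203 and 1137 in PG follicles. The RNA helicase gene helz had 3011, 3451 and 2528 in PV and 1289, 1219 and 852 in PG follicles. The guanine nucleotide exchange factor gene rasgef1ba had 2793, 2822 and 2808 in PV and 995, 1134 and 1034 in PG follicles.

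Among the other members in RNA metabolism were several that act in mRNA decay. Vertebrate oocytes store mRNA in a silent form, and removal of the poly(A) tail and of the cap are the steps that end an mRNA. The decapping enzyme gene dcp2 (ENSDARG00000104242) had 1795, 1807 and 1637 in PV and 585, 556 and 614 in PG follicles, 2.98-fold higher. The deadenylase gene cnot6b was 2.48-fold higher, btg1, a partner of the same complex, was 2.59-fold higher, rc3h1b, a Roquin RNA-binding protein, was 3.03-fold higher, and gigyf1, a partner of a cap-binding repressor, was 2.55-fold higher. Of 68 other tested genes in the list of mRNA decay and repression 2 were higher and 2 were lower in PV, beside 13.2% and 5.97% of all tested genes. The median log2 fold change of the 68 was -0.10. Those higher were tnrc6c1 (log2 fold change 2.07) and tnrc6c2 (1.57), which encode partners of Argonaute. The lower genes were btg4, known in mammals for clearing maternal mRNA in maturing oocytes, with means of 5822 in PV and 14822 in PG follicles (log2 fold change -1.35, adjusted p = 2.5e-08), and si:ch211-103b1.2 (-1.31). The share over all genes includes the members, which were left out of the 68. With the list's 8 members counted in, 10 of 76 were higher and 2 lower.

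Chromatin proteins formed a class of 11 members between 2.27-fold and 3.46-fold higher. The lysine acetyltransferase gene kat6b (ENSDARG00000055429) had 1137, 1333 and 1313 in PV and 365, 348 and 379 in PG follicles. The lysine methyltransferase gene kmt2bb (ENSDARG00000060697) had 1508, 1804 and 1874 in PV and 572, 511 and 437 in PG follicles, 3.41-fold higher. The Polycomb-related reader genes sfmbt1 and mbtd1 were 2.77-fold and 2.61-fold higher, setd3, an actin histidine methyltransferase in mammals despite its name, was 2.78-fold higher, and parp1, an enzyme of DNA repair, was 2.49-fold higher. Of 126 other tested genes of histone modification and reading, 15 were higher and 2 lower, beside 13.2% higher and 5.97% lower among all tested genes, and the median log2 fold change was 0.16. The lower genes were brd8 (log2 fold change -1.46) and kat5a (-1.01), the second of which lost its call when any of PV replicate 1, PV replicate 2, PG replicate 2 or PG replicate 3 was left out. Among the higher genes phf20a had a log2 fold change of 2.43, kdm6bb of 2.38 and zmiz2 of 2.14. With the list's 8 members counted in, as they are in the share over all genes, 23 of 134 were higher and 2 lower.

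Signalling through phosphoinositides was represented by members such as pik3r1, inpp5f, rictorb and trib3. Kinases of the PI3K family make a membrane lipid that activates Akt, and in the mammalian ovary this pathway is known for its control of the activation of primordial follicles. The regulatory subunit gene pik3r1 (ENSDARG00000038524) had 2291, 2318 and 2135 in PV follicles, against 986, 975 and 933 in PG follicles, 2.33-fold higher. The subunit gene of TOR complex 2, rictorb, had 1186, 1315 and 1180 in PV and 605, 608 and 532 in PG follicles. The Akt-binding pseudokinase gene trib3 was 2.30-fold higher and the phosphatase gene inpp5f 2.24-fold higher. In each of these genes every PV value was above every PG value, as in 149 of the 150 members and 36.5% of all tested genes.

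Of 52 other tested genes of that pathway 10 were higher and 1 lower in PV, beside 13.2% and 5.97% of all tested genes. The median log2 fold change of the 52 was 0.35. The largest rises with a sufficient level were those of pik3cg (log2 fold change 3.71, standard error 0.29, adjusted p = 2.2e-06), foxo3b (2.44) and foxo1a (1.99). The catalytic subunit gene pik3ca had a log2 fold change of 1.72. The lower gene was phlpp1, a phosphatase of Akt, with means of 528 in PV and 1210 in PG follicles (log2 fold change -1.21). MTOR and the akt genes given here did not pass both thresholds. MTOR had means of 1387 in PV and 1671 in PG follicles (log2 fold change -0.27, standard error 0.07, adjusted p = 0.0092), under the fold threshold. The gene akt1, low in counts, had 46.0 in PV and 40.6 in PG follicles (log2 fold change 0.20, standard error 0.26). The gene akt2 had means of 3167 in PV and 2098 in PG follicles (log2 fold change 0.60, adjusted p = 2.9e-06), and another that the reference table names AKT2 (ENSDARG00000103612) had 1140 in PV and 1717 in PG follicles (log2 fold change -0.59, adjusted p = 2.7e-05), both under the fold threshold.

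The remaining members near the middle of the range fell into several classes with similar ratios. The class of kinases, phosphatases and lipid signalling held 15 members, with a median of 2.30-fold, among them the Hippo pathway kinase gene lats1 (ENSDARG00000003751), with 1168, 1399 and 1278 in PV and 328, 331 and 370 in PG follicles, and limk2, which controls actin through cofilin, 3.15-fold higher. The 10 regulators of small GTPases had a median of 2.57-fold. The paralogs arhgap12a and arhgap12b were 3.09-fold higher each, and reads could have been split between them. The 7 members of the actin and membrane skeleton had a median of 2.36-fold, with cnn3a, a calponin, at 3.73-fold and tmsb4x, which binds actin monomers, at 2.39-fold.

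Vesicle traffic and protein sorting held 12 members with a median of 2.27-fold. The syntaxin gene stx16 was 3.48-fold higher. The sorting nexin gene snx12 (ENSDARG00000019060) had 2287, 2486 and 2195 in PV and 755, 774 and 800 in PG follicles, 2.99-fold higher, and snx17 and snx7 were 2.28-fold and 2.18-fold higher. The clathrin adaptor genes epn2 and clint1a were 2.77-fold and 2.13-fold higher, and stam2, which sorts ubiquitinated cargo, was 2.27-fold higher. The recycling endosome gene rab11fip1b had 1443, 1473 and 1624 in PV and 589.8, 588 and 623 in PG follicles. Of 105 other tested genes of sorting nexins, ESCRT-0 and clathrin adaptors, 10 were higher and 2 lower, beside 13.2% and 5.97% of all tested genes. The median log2 fold change of the 105 was 0.12. Among these DAB2, an adaptor for lipoprotein receptors, had means of 356 in PV and 101 in PG follicles (log2 fold change 1.80, adjusted p = 1.2e-06), and itsn2a (log2 fold change -1.21) and snx16 (-1.03) were lower. The call of snx16 was lost without PV replicate 2 and without PG replicate 2. With the list's 6 members counted in, as they are in the share over all genes, 16 of 111 were higher and 2 lower.

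Transcription factors outside the early response class numbered 13 and had a median of 2.37-fold. Beside zfpm2b the highest was sox13, with 1493, 1785 and 1454 in PV and 511, 439 and 413 in PG follicles. The Notch pathway factor rbpja was 2.28-fold higher, and nr1h3, the liver X receptor that senses oxysterols, was 2.19-fold higher. The ubiquitin system held 8 members between 2.27-fold and 2.96-fold higher, among them mkrn1, with 2423, 2321 and 2358 in PV and 859, 906 and 852 in PG follicles. Metabolism and transport held 9 members. The zinc transporter gene slc30a9 was 2.93-fold higher, and the amino acid transporter family gene slc38a10 was 2.17-fold higher.

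Few members varied widely between PV libraries. A coefficient of variation above 30% was found for 3 members in PV and for 11 in PG follicles, of which 7 were near the floor. The 3 in PV were AC024175.4, STK35 and rgl1. The kinase gene STK35 (ENSDARG00000057497) had 2340.1, 2116 and 594 in PV follicles, against 933, 995 and 375 in PG follicles, and was the member whose groups overlapped and the only one not called by edgeR. Its low values were in PV replicate 3 and PG replicate 3, and with 1 library left out the ratio was between 1.75-fold (without PG replicate 3) and 2.90-fold (without PV replicate 3). The Ral exchange factor gene rgl1 had 1367, 1521 and 668 in PV and 512, 531 and 491 in PG follicles. Its low PV value was in the same library, without which the ratio was 2.82-fold, against 1.99-fold without PV replicate 2.

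Few members were direct neighbours in the genome. Only direct neighbours and counts per chromosome were examined, without a comparison with other genes. Of the nuclear members 135 could be matched by symbol to RefSeq's gene order for the zebrafish assembly GRCz12tu, a later assembly than that of the counts. They lay on 24 chromosomes, with at most 8 on any of them, and zfpm2b and lrp12 were the 1 pair of members with no other protein-coding gene between them. These neighbours were 14.6-fold and 2.60-fold higher.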

How the data were processed

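RNA of 3 PV and 3 PG samples was sequenced. The methods name a directional NEBNext kit and the labels a TruSeq kit. The authors aligned reads to GRCz10 with TopHat2, extracted a count per Ensembl gene with StringTie, and deposited these raw counts. They also deposited a normalized signal, the counts divided by 1 DESeq2 size factor per library (0.554 to 1.42). The members, lists and named genes were chosen with earlier results of these data known.

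The rule used the normalized values, with 1 added to each mean. Tests used the raw counts: filterByExpr (minimum count 10, minimum total 15) left 15899 genes, which were scaled by TMM and tested with edgeR's quasi-likelihood test (edgeR 4.0.16, R 4.3.3), with stage as the factor and Benjamini-Hochberg adjustment over all tested genes. Calls needed an adjusted p no greater than 0.05 with an absolute log2 fold change of 1 or more. A positive value means higher in PV. Self-testing on counts simulated for the same 15899 genes recovered 195 of 200 changed genes. The simulated log2 changes were 2 or 3 in either direction, and every gene had the same biological coefficient of variation, 8.4%. Recovery of smaller changes, such as those of most members, or of genes with a wider spread was therefore not tried. DESeq2 1.42.0, other scalings and filters, a replicate block and leaving out libraries in turn were the alternatives.

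Totals of 14492086 to 36603108 counts put 3 counts at between 8.2e-06% and 2.07e-05% of a library, for counting error only. Exact permutation of 3 against 3 cannot go below p = 0.1. According to the methods, 3 groups of fish each gave follicles of both stages, and within a stage the libraries are separate groups. Named genes were the 20 members of highest ratio, the 10 of highest PV and of highest PG mean, those at the limits of the rule, all mitochondrial genes, members in the lists, the 3 other genes of largest called change per list with a mean of at least 50, and tfam, polrmt, akt1 and mtor. A few of these are not reported here. Others were named after their values were seen, as examples of their class. Symbols came from the study's supplementary table for 145 members and from the reference table for 5. Gene lengths and sequences were not used here, so levels are compared between stages and not between genes. RefSeq coordinates gave only the order of genes on the chromosomes and on mitochondrial DNA. Columns of the authors' own comparisons were not used.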

Additional observations from a re-analysis of the deposited data

How the results depend on the processing

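With libraries scaled by their totals, 3664 genes were higher and 415 lower in PV, so that 89.8% of the called genes were higher, against 68.9% (2105 and 949) in the TMM scaling. With at least 10 counts required in every library, 1223 were higher and 614 lower, from fewer genes tested. DESeq2 gave 2197 and 983. All 150 members kept a log2 fold change above 0 in every alternative in which they were fitted, and between 146 and 150 were called when 1 library was left out. The number of members that the rule kept was between 141 and 145 with 1 library left out, 104 with means scaled by totals, 64 with a PV level of 500 and 31 with a PV level of 2000. The last 2 change by construction, since 150 genes are taken from a longer or shorter list. The ratio of mitochondrial shares, 18.7, was between 17.7 and 19.3 with 1 library left out. In alternatives added after seeing the data it was 14.03 on size-factor normalized counts and 26.3 with the AC024175 entries. All mt- entries are protein genes, so restricting the sum to these changed nothing. The median of the nuclear respiratory chain subunits turned from -0.31 to 0.11 in the scaling by totals, and its distance to the median of all genes was between -0.28 and -0.40 throughout. The changes of scaling could hardly alter that distance. Of the list genes other than members, the scaling by totals called 22 higher for PI3K and TOR signalling, 8 for mRNA decay, 30 for histone proteins and 23 for sorting nexins and adaptors, and 0, 0, 1 and 0 lower in the same order.

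A fit with the replicate number as a block called 1983 genes higher and 860 lower, and 150 members. The methods say that both stages came from the same 3 groups of fish, but not that equal numbers mark the same group. Deviations from the stage means across 12229 genes correlated with -0.0149, -0.0051 and 0.023 for the 3 numbers, and 2 of 6 libraries correlated best with their own number.

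For the 98 genes that the naming rule gave, 1250 values kept their side of the threshold and 7 lost the call, with none reversed. Those lost were dicer1 and acbd5a without PV replicate 2, acbd5a without PG replicate 2, and ndufs8b, si:dkeyp-94h10.5, btg4 and itsn2a in the scaling by totals.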
